A study of Mus musculus with 18 samples.

Results

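The 41 type I interferon-stimulated genes (ISGs) described here were picked by symbol from both deposited expression tables of a mouse RNA-seq study of *Xist* repeat B. *Xist* is the long noncoding RNA that coats and silences the inactive X chromosome, and repeat B is a cytosine-rich stretch within it. All 41 symbols were listed in the table of mouse embryonic fibroblasts (MEFs, 21959 genes) and in the liver table (51826 genes). No member lies on the X chromosome. Each tissue had 3 libraries labelled as repeat B deletion (RepB-/-, homozygous female mice in the study's methods) and 3 as wild type (WT), where the title letters B and W were read as these genotypes. The labels give no sex. The deletion was made with CRISPR/Cas9 and a pair of single-guide RNAs, no other allele or treatment is named, and animal age is not given in the sources used here. The MEF labels call the cells a primary line and give tail as the tissue. Whether replicates were separate animals or cultures is not stated, so each p-value measures only the spread between these libraries, which may be technical. The brain libraries of the series were not analysed here.

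MEF libraries held 11540344 to 20587556 counts and liver libraries 37682201 to 51542709. Levels are CPM, the counts scaled to each library's size after trimmed-mean correction, and genotypes were compared by edgeR's quasi-likelihood method, with p-values adjusted (Benjamini-Hochberg) across all tested genes. A gene was called when its adjusted p was under 0.05. Summed fibroblast markers (10 genes) were 29300 to 35300 CPM in RepB-/- and 20400 to 25300 CPM in WT MEFs, and summed hepatocyte markers (10 genes) were 168000 to 239000 CPM in liver. Among those fibroblast markers, *Col1a1* ranged from 5080 to 9750 CPM in MEFs. The MEF table did not list *Xist*. In liver, *Xist* was at 290 to 662 CPM in 5 libraries and at 0.0794 CPM in the library labelled RepB-/- replicate 2, which also held 86.2 CPM of 4 Y-linked genes. Those values are the pattern of a male sample and go against a homozygous female, so every liver comparison below rests on 1 library whose genotype label is in doubt.

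Type I interferons bind the receptor chains IFNAR1 and IFNAR2, whose kinases JAK1 and TYK2 activate STAT proteins, STAT2 among them. With IRF9 these form the factor ISGF3, which binds a DNA element called the interferon-stimulated response element (ISRE) near the start of its target genes. The induced genes encode sensors of foreign RNA, further transcription factors, the ubiquitin-like modifier ISG15, RNA-binding proteins and direct blockers of viral replication. Many are held at a low basal level in fibroblasts and liver cells until interferon is present.

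Promoter windows, 250 bases before to 50 bases after the start site, were available from RefSeq on GRCm38.p6 for 30 of the 41 members. The ISRE core was searched as GAAANNGAAA on both strands, and overlapping matches were counted separately. A match was found in 13 of 30 members (43.3%), against 3.99% of 27025 genes with a window. There were 21 matches, with a median first base 85 bases before the start. The stretches below show the members called in MEFs with a match and chosen members with a match that were not called. *Oasl1* is the called member of largest change whose window held no match. Among the uncalled, *Oas1g* was below the filter on low counts in MEFs and so was not tested there. The uncalled ones were chosen after their values were seen. Capitals mark the ISRE core or its reverse complement, and position -1 is the base before the start site.
Oas1a (chr5:120907526-120907575, minus strand, positions -50 to -1): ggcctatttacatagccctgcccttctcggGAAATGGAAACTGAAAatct
Oas1g (chr5:120887614-120887661, minus strand, positions -48 to -1): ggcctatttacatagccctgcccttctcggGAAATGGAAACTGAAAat
Eif2ak2 (chr17:78882535-78882564, minus strand, positions 9 to 38): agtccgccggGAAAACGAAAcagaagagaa
Cxcl10 (chr5:92349063-92349132, minus strand, positions -243 to -174): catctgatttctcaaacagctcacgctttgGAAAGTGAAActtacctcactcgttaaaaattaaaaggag
Isg15 (chr4:156200845-156200926, minus strand, positions -108 to -27): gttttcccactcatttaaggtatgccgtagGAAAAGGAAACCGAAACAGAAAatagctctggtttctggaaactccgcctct
Ifit1 (chr19:34640755-34640843, plus strand, positions -134 to -46): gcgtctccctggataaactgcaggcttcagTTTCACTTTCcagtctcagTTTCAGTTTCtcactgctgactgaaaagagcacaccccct
Ifit3 (chr19:34583343-34583446, plus strand, positions -186 to -83): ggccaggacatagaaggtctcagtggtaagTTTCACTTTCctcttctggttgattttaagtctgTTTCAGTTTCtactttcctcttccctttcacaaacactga
Ifit3b (chr19:34607739-34607842, plus strand, positions -218 to -115): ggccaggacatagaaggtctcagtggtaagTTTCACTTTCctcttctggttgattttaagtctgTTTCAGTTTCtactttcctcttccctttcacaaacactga
Oasl1 (chr5:114923120-114923239, plus strand, positions -120 to -1): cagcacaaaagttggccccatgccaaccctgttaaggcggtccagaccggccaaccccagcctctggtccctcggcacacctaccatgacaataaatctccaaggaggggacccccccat

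*Isg15* carried 3 overlapping matches in 1 run, and *Ifit1* carried 2 separate ones on the opposite strand. The *Oas1a* and *Oas1g* stretches were identical over the 48 bases they share, and those of *Ifit3* and *Ifit3b* over 104 bases. Reads of such recent gene copies can be split or misassigned in counting, so the separate levels of *Oas1a* and *Oas1g*, and of *Ifit3* and *Ifit3b*, are uncertain. The GAS core, the element of interferon gamma responses and searched as TTCNNNGAA, was present in 7 of the 30 windows (23.3%) against 9.55% of genes.

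In MEFs, 36 of the 41 members passed the filter on low counts. Of these, 10 (27.8%) were called, against 39.1% of the 13306 genes tested, so the share of members called was below that of all genes. Of the 36 members, 17 averaged under 5 CPM, and how their low levels bear on that share was not tested. The 8 higher in RepB-/- MEFs were *Samd9l*, *Oas1a*, *Xaf1*, *Parp14*, *Eif2ak2*, *Lgals3bp*, *Irf1* and *Irf9*, with log2 fold changes from 0.26 to 1.30 (19.4% of all genes were higher). The 2 lower ones were *Oasl1* and *Cxcl10* (19.7% of all genes were lower). Both passed the filter on low counts only through their WT libraries, so their direction is not independent of that filter. DESeq2 called 8 of the 40 members to which it gave an adjusted p, against 31.4% of its genes. The median log2 fold change over the 36 members was 0.14, with 24 above 0 and 12 below, and over all tested genes it was 0.0003. The median reached 0.24 without RepB-/- replicate 3 and, separately, without WT replicate 1. Libraries of the genotypes did not overlap for 13 members, 9 with RepB-/- above and 4 below, against 52.2% of all genes. At an unadjusted p under 0.05 stood 11 members, against 47.7% of all genes.

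**Figure D1:**
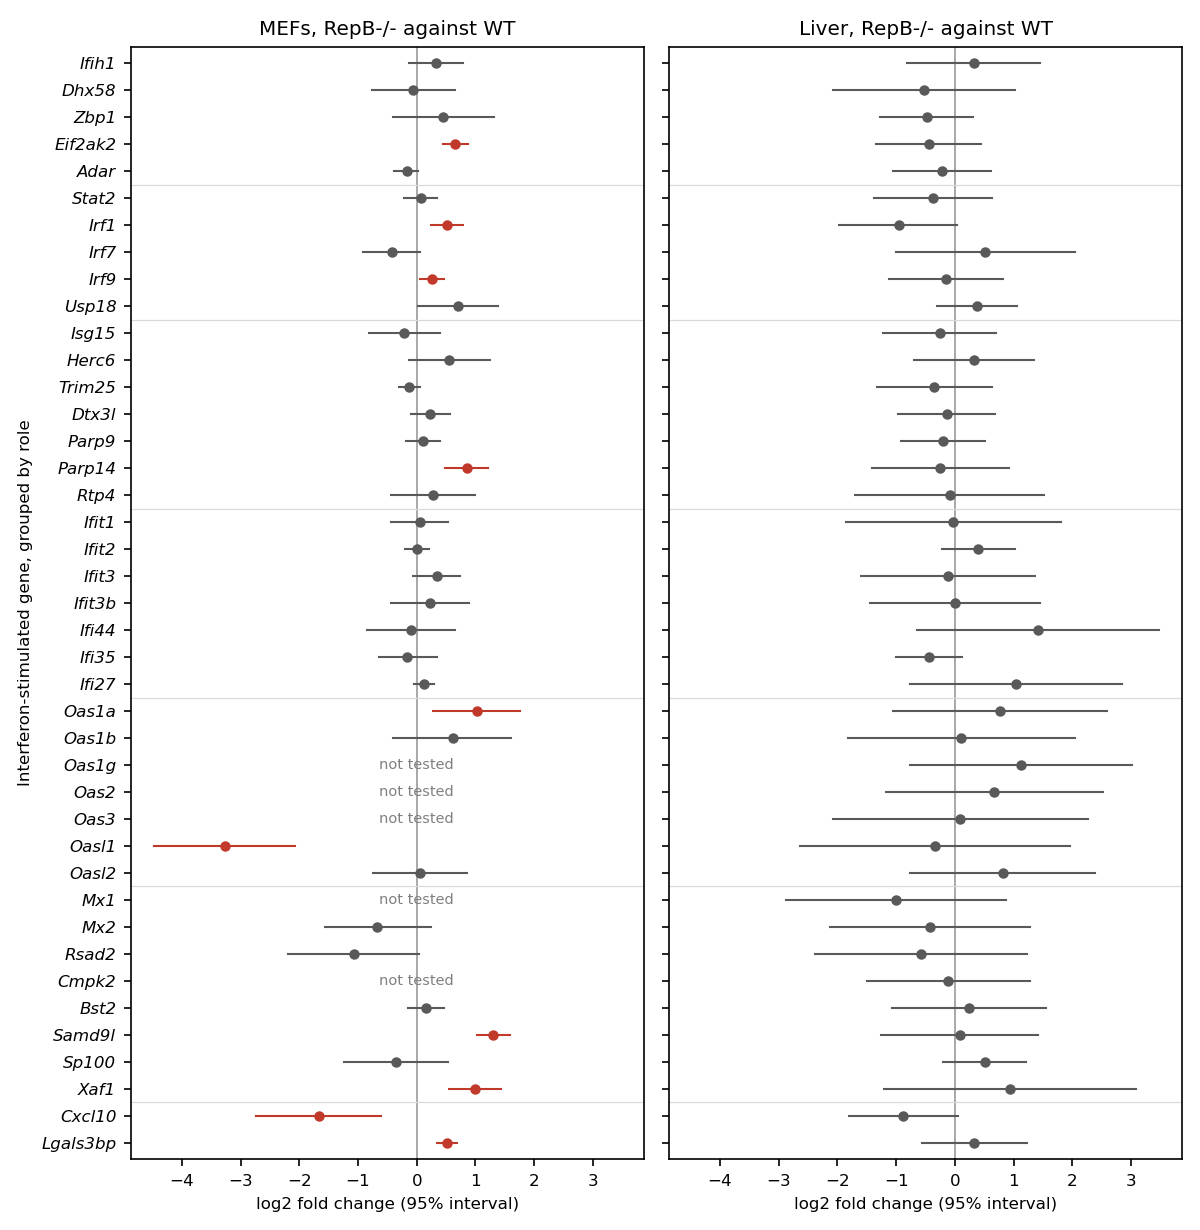
Log2 fold change of each interferon-stimulated gene in RepB-/- against WT, in MEFs (left) and liver (right), 3 libraries a genotype; points are edgeR estimates, bars 95% intervals, and red marks an adjusted p under 0.05. In MEFs 8 members lie to the right and 2 to the left in red, while every liver interval includes 0.

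Compared per length, in the deposited FPKM (fragments scaled to gene length and library size), the 3 most abundant members in MEFs were the same in both genotypes. *Lgals3bp*, a secreted glycoprotein that binds galectins, averaged 101 FPKM in RepB-/- and 75.7 in WT. *Ifi27*, a small hydrophobic membrane protein, averaged 54.5 and 54.0 FPKM, and *Bst2*, the membrane tether that holds budding virions, 20.2 and 19.7 FPKM. All other members averaged under 8 FPKM. The 5 members below the count filter, *Mx1*, *Oas1g*, *Oas2*, *Oas3* and *Cmpk2*, held at most 10 counts in any MEF library.

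Among the sensors of foreign RNA and enzymes of double-stranded RNA, 1 of 5 was called in MEFs. *Eif2ak2* encodes PKR, the kinase that halts translation when it binds double-stranded RNA. It was at 34.1, 40.6 and 34.1 CPM in the RepB-/- libraries and at 21.7, 24.3 and 22.6 CPM in the WT libraries. The RepB-/- values all exceeded the WT values, a 1.58-fold difference (log2 0.66, SE 0.099, edgeR adjusted p 0.000212). *Ifih1*, the long double-stranded RNA sensor MDA5, was at 6.32, 8.52 and 8.21 CPM against 8.10, 4.27 and 6.24 CPM, with overlapping groups (log2 0.32, 95% interval -0.14 to 0.79). *Adar*, which edits adenosines in double-stranded RNA and so hides self RNA from MDA5, was at 37.3, 40.1 and 35.9 CPM against 48.4, 40.6 and 39.1 CPM. Its groups overlapped (log2 -0.17, 95% interval -0.38 to 0.03). The other sensors, *Dhx58* (LGP2) and *Zbp1* (a sensor of Z-form nucleic acid), were below 4 CPM in every library and their intervals spanned -0.77 to 0.65 and -0.41 to 1.31.

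Among the transcription factors and their feedback, 2 of 5 members were called. *Irf1*, a factor that keeps basal ISG transcription and is itself induced, was at 13.9, 12.8 and 13.5 CPM in RepB-/- and 8.82, 9.71 and 9.56 CPM in WT MEFs. The groups were clearly apart with little spread within each, a 1.42-fold difference (log2 0.51, SE 0.12, edgeR adjusted p 0.00521). *Irf9*, the DNA-binding subunit of ISGF3, was at 26.6, 25.6 and 22.9 CPM against 20.1, 20.6 and 21.8 CPM. The groups did not overlap, but the change was small (log2 0.26, SE 0.099) and its edgeR adjusted p of 0.0499 lay at the threshold. *Irf9* was no longer called by DESeq2 (adjusted p 0.0950), with DESeq2 size factors (0.0571), or when any of 5 libraries was left out, RepB-/- replicates 1 and 2 and the WT replicates.

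The other members of this group did not pass the test. *Stat2*, a subunit of ISGF3, was at 26.8, 22.0 and 18.2 CPM against 21.2, 21.9 and 20.9 CPM (log2 0.07, 95% interval -0.21 to 0.34). *Irf7*, the factor that amplifies interferon alpha production, was below WT in all 3 RepB-/- libraries, at 3.47, 3.15 and 2.48 against 4.09, 3.90 and 4.22 CPM, without passing (log2 -0.42, edgeR adjusted p 0.152). *Usp18*, which removes ISG15 from proteins and dampens the receptor, was at 3.62, 2.07 and 2.43 against 1.28, 2.10 and 1.54 CPM. The groups overlapped through 1 library of each genotype (log2 0.70, edgeR adjusted p 0.0964).

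In the ISG15 and ubiquitin group, 1 of 7 was called. *Parp14*, an ADP-ribosyltransferase, was at 9.48, 12.3 and 8.77 CPM in RepB-/- and 5.37, 5.57 and 6.0 CPM in WT MEFs. All RepB-/- libraries were higher, by 1.80-fold (log2 0.85, SE 0.17, edgeR adjusted p 0.00156). Its neighbours on chromosome 16, *Parp9* and *Dtx3l*, which encode a paired ADP-ribosyltransferase and ubiquitin ligase, gave log2 differences of 0.11 (95% interval -0.19 to 0.40) and 0.23 (-0.10 to 0.56). The MEF table places *Dtx3l* at chr16:35746881-35759521 (minus strand) and *Parp9* at chr16:35758840-35792975 (plus strand) on GRCm39, so their ends overlap, and whether the counting used strand is not given in the sources used here. *Isg15*, the modifier itself, was at 4.28, 3.72 and 3.29 CPM against 6.25, 4.51 and 2.55 CPM. WT libraries held both its highest and its lowest value (log2 -0.22, 95% interval -0.82 to 0.39). *Trim25*, a ligase that helps activate the sensor RIG-I, was at 39.0, 39.7 and 37.8 against 44.8, 42.2 and 40.3 CPM. It was lower in every RepB-/- library by a small margin that did not pass (log2 -0.13, edgeR adjusted p 0.231).

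None of the 7 IFIT and IFI44 family members was called in MEFs, by edgeR or by DESeq2, and none had an unadjusted p under 0.05. Their log2 fold changes ran from -0.16 to 0.34. *Ifit2*, an RNA-binding antiviral protein, was at 27.5, 29.6 and 29.2 CPM in RepB-/- and 25.9, 28.4 and 31.4 CPM in WT MEFs. The libraries were interleaved, and the interval of the difference was narrow (log2 0.01, 95% interval -0.20 to 0.21). *Ifit1*, which binds viral RNA that lacks cap methylation, was at 4.79, 6.72 and 4.31 against 6.42, 4.51 and 4.46 CPM (log2 0.05, 95% interval -0.43 to 0.54). *Ifit3*, its binding partner, was at 9.94, 10.5 and 6.39 against 7.38, 6.55 and 7.37 CPM. RepB-/- replicate 3 sat below all WT libraries while the other RepB-/- libraries sat above them (log2 0.34, edgeR adjusted p 0.177), and without that replicate *Ifit3* was called (adjusted p 0.0236). *Ifi27* was at 86.6, 86.6 and 76.4 against 72.5, 82.4 and 74.0 CPM (log2 0.12, 95% interval -0.05 to 0.30).

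**Figure D2:**
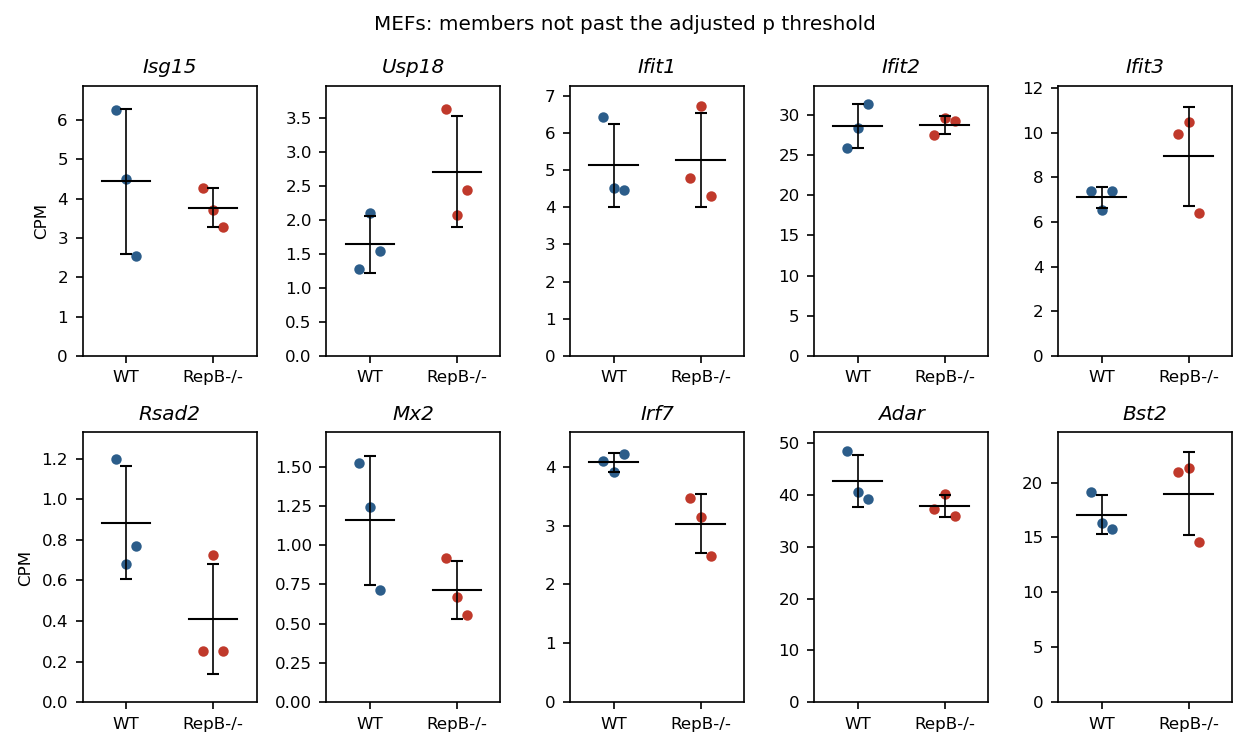
CPM of 10 interferon-stimulated genes that did not pass the adjusted p threshold in MEFs, WT (blue) and RepB-/- (red); each point is 1 library, the long line the mean and the bar the SD of 3 libraries, with axes from 0. Libraries of the genotypes overlap in every panel but *Irf7*, where all 3 RepB-/- values (2.48 to 3.47) are below WT (3.90 to 4.22).

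The oligoadenylate synthetases make the second messenger that activates RNase L, and 4 of the 7 could be tested in MEFs. *Oas1a* had 30, 52 and 42 counts in RepB-/- and 15, 17 and 15 in WT libraries, or 1.53, 2.69 and 2.13 against 1.20, 1.05 and 0.891 CPM. All RepB-/- libraries were higher, by 2.03-fold (log2 1.02, SE 0.34, edgeR adjusted p 0.0303). DESeq2 did not call it (adjusted p 0.0640), nor did edgeR without RepB-/- replicate 2 or 3 or WT replicate 2 or 3. *Oasl1*, a catalytically inactive relative that in mouse holds back translation of *Irf7*, had 6, 2 and 5 counts in RepB-/- and 41, 40 and 16 in WT libraries. Its CPM were 0.306, 0.103 and 0.253 against 3.29, 2.47 and 0.950. Every RepB-/- value was below every WT value, by 9.66-fold (log2 -3.27, SE 0.56, edgeR adjusted p 0.000531). *Oasl2*, next to it on chromosome 5 and catalytically active, was at 1.73, 2.43 and 0.963 against 1.76, 1.92 and 1.25 CPM with no separation (log2 0.06, 95% interval -0.74 to 0.86).

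Among the direct antiviral effectors, 2 of the 6 tested were called, both higher. *Samd9l*, an inhibitor of translation and cell growth at chr6:3372257-3399572 (minus strand, GRCm39), had 526, 463 and 531 counts in RepB-/- and 102, 191 and 190 in WT libraries. Its CPM were 26.8, 23.9 and 26.9 against 8.18, 11.8 and 11.3. The lowest RepB-/- library was well above the highest WT library, and the 2.46-fold difference was the largest rise of any member (log2 1.30, SE 0.13, edgeR adjusted p 1.1e-05). *Xaf1*, which opposes the apoptosis inhibitor XIAP, was at 9.94, 7.80 and 6.39 against 4.09, 4.64 and 3.39 CPM. The groups did not overlap, a 1.99-fold difference (log2 0.99, SE 0.21, edgeR adjusted p 0.00213). *Bst2* was at 21.0, 21.3 and 14.6 against 19.1, 16.3 and 15.8 CPM and overlapped (log2 0.16, 95% interval -0.15 to 0.47). *Rsad2* (viperin) and *Mx2* (a virus-blocking GTPase) were below 2 CPM in every library, with log2 differences of -1.07 (95% interval -2.19 to 0.04) and -0.67 (-1.57 to 0.24). The 7 tested members of these groups without values above, *Herc6*, *Rtp4*, *Ifit3b*, *Ifi44*, *Ifi35*, *Oas1b* and *Sp100*, had log2 differences of -0.35 (*Sp100*) to 0.61 (*Oas1b*), and none passed the test.

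The secreted members went in opposite directions. *Lgals3bp* was at 320, 296 and 277 CPM in RepB-/- and 192, 217 and 214 CPM in WT MEFs. It was higher in every RepB-/- library, by 1.43-fold (log2 0.52, SE 0.078, edgeR adjusted p 0.000209). *Cxcl10*, the chemokine that draws CXCR3-bearing lymphocytes, had 9, 7 and 3 counts in RepB-/- and 17, 12 and 18 in WT libraries, or 0.459, 0.362 and 0.152 against 1.36, 0.742 and 1.07 CPM. All RepB-/- libraries were lower, by 3.18-fold (log2 -1.67, SE 0.50, edgeR adjusted p 0.0165). Like *Oasl1*, *Cxcl10* passed the filter on low counts only through WT libraries. With no filter its estimate was -1.63 (edgeR adjusted p 0.0293). The *Cxcl10* call was lost without RepB-/- replicate 2 (edgeR adjusted p 0.0514) or replicate 3 (0.0758).

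**Figure D3:**
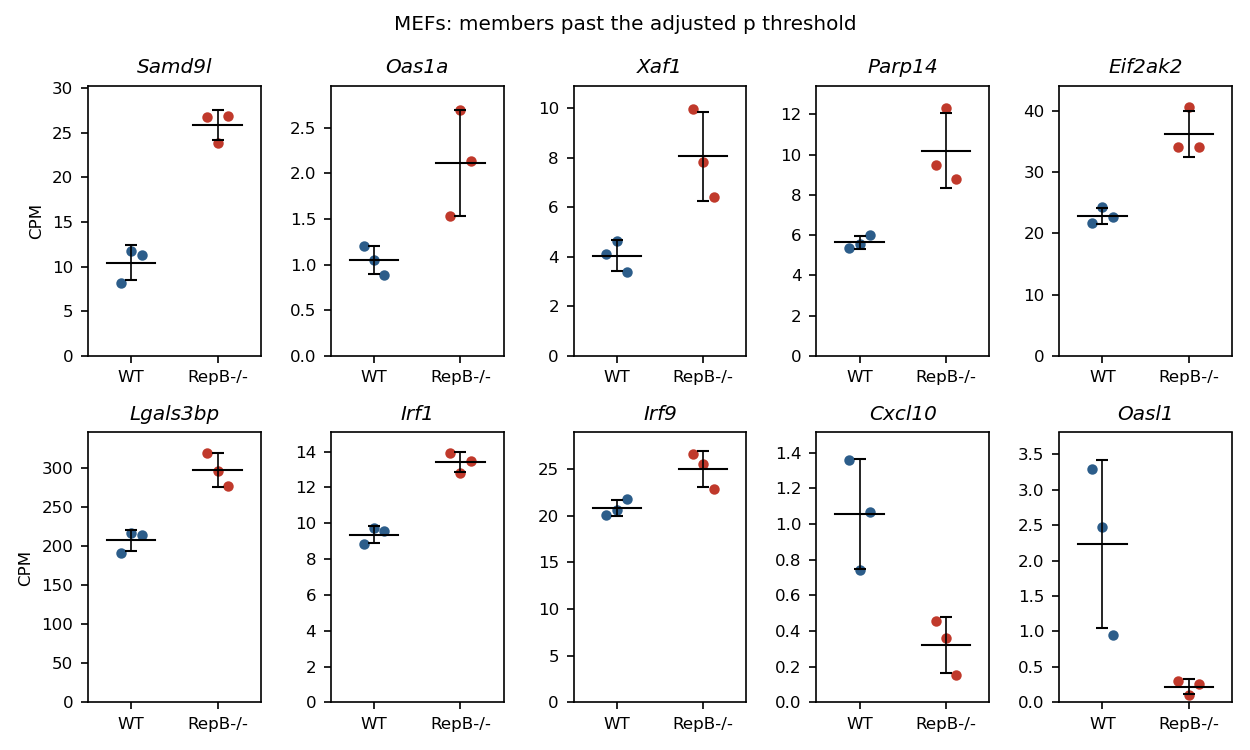
CPM of the 10 interferon-stimulated genes called in MEFs, WT (blue) and RepB-/- (red); each point is 1 library, the long line the mean and the bar the SD of 3 libraries, with axes from 0. The genotypes do not overlap in any panel, and the 2 lower members, *Cxcl10* and *Oasl1*, are at most 3.29 CPM in any library.

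Other features of the MEF libraries moved with genotype. Although WT libraries were shallower, genes with at least 1 count numbered 17191 to 17664 in them and 15453 to 15545 in RepB-/- libraries. Olfactory and vomeronasal receptor genes (1550 listed, examined after the member values were seen) summed to 57.0 to 108 CPM in WT and 7.75 to 9.93 CPM in RepB-/- MEFs. *Oasl1* and *Cxcl10* moved in the same direction as those receptor genes and were themselves low, and the part of this difference in their calls was not tested. Summed macrophage markers (10 genes, of which *Clec4f* was at 0 everywhere) were 116 to 150 CPM in RepB-/- and 54.8 to 68.4 CPM in WT MEFs. Of the 5 tested, 3 were higher, with *Lyz2* at 90.8 to 120 against 20.3 to 42.7 CPM, and 2 were lower. That is 100% called, against 39.1% of all genes tested in MEFs. Of the 10 fibroblast markers 5 were higher and 1 lower (60.0% called, beside the same 39.1%). Summed endothelial markers (8 genes) were 23.0 to 26.7 CPM in RepB-/- and 37.8 to 45 CPM in WT MEFs. Of the 5 tested, 4 were lower and 1 higher (100% called). The part of these markers in the member calls was not tested. In bulk RNA, more cells of a type and more RNA per cell cannot be told apart.

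Upstream of the members, the interferon ligands were close to absent in MEFs. Of 21 ligand genes 1 passed the filter, *Ifna13*, with 0, 3 and 0 counts in RepB-/- and 29, 11 and 10 in WT libraries (lower, edgeR adjusted p 0.00230). It passed only through its WT libraries, so this direction too is not independent of the filter. *Ifnb1*, the interferon that fibroblasts make first, had 1 count in 1 WT library and 0 in the other 5. The summed ligands were 0.0507 to 0.155 CPM in RepB-/- and 1.11 to 4.01 CPM in WT MEFs, again with the direction of the receptor genes above.

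Of the 15 receptor and JAK-STAT genes, 7 were higher and 1 lower in RepB-/- MEFs, 53.3% called against 39.1% of all genes. The kinase *Jak1* was at 552, 572 and 597 against 300, 325 and 331 CPM (log2 0.85, edgeR adjusted p 2.53e-06). The receptor chain *Ifnar2* was at 34.9, 34.2 and 35.0 against 23.7, 25.7 and 23.4 CPM (log2 0.52, adjusted p 0.000480). The interferon gamma receptor chain *Ifngr2* was lower (log2 -0.65, adjusted p 6.85e-05), and the feedback inhibitor *Socs3* was higher (log2 0.49).

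Of 22 tested nucleic acid sensing genes, 5 were higher and 3 lower, 36.4% called and near the 39.1% over all genes. The largest differences were a fall of *Irf5*, a factor downstream of Toll-like receptors (log2 -1.54), rises of the endosomal RNA receptor *Tlr3* (1.11) and of *Ifi204*, a DNA-binding protein of the p200 family (0.75), and a fall of the adaptor *Traf6* (-0.50). Among 38 other interferon-induced genes outside the 41, 6 were higher and 5 lower (28.9% called), led by *Slfn9* (log2 1.60), *Ifi203* (1.41), *Ifi207* (1.29) and *Slfn2* (0.90). *Ifi203*, *Ifi204* and *Ifi207* are close copies in 1 cluster, and reads shared between them leave their separate levels uncertain. None of 9 tested interferon gamma GTPases was called, with log2 differences of -0.19 to 0.45, none had an unadjusted p under 0.05 and DESeq2 also called 0. Of 11 MHC class I and loading genes, *B2m* (log2 0.34) and *Tapbp* (0.28) were higher and *H2-D1* (-0.27) lower. That is 27.3% called, below the 39.1% over all genes.

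Innate immune genes on the X chromosome, the chromosome *Xist* silences, were a list of 13 with 10 tested and 6 higher in RepB-/- MEFs (60.0% called, against 39.1% of all genes). *Cybb*, a subunit of the phagocyte oxidase, rose by 1.55 on the log2 scale, the RNA receptor *Tlr13* by 1.17, the apoptosis inhibitor *Xiap* by 0.75 and the RNA helicase *Ddx3x* by 0.54. The median log2 fold change of the 10 was 0.43. The share called over all X-linked genes is not given here. Summed macrophage markers, given above, were also higher in RepB-/- MEFs, and their part in these rises was not tested.

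In liver, all 41 members passed the filter, and edgeR called 0 of them, against 0.0373% of 16080 genes. At an unadjusted p under 0.05 there were also 0 members, against 3.12% of genes, and DESeq2 called 0, against 0.425% of genes. That unadjusted count depended on the fit. It was 2 by DESeq2 (3.02% of genes) and 2 with the replicate block (6.7%), where *Irf1* had p 0.00228 and *Ifi27* p 0.0229 by edgeR. It was 6 without RepB-/- replicate 1 (4.77%), 3 without RepB-/- replicate 3 (2.98%), 2 without the library labelled RepB-/- replicate 2 (2.74%), and 9 with a term for replicate 1 and without that library (8.16%). The count of members called by adjusted p was 0 in every liver fit, among them with a replicate block (0.0498% of genes called), with a term for replicate 1 (0.056%), and with that term and without the library holding Y-linked counts (0.0179%). The median member log2 fold change was -0.09 (-0.20 without the library labelled RepB-/- replicate 2), and over all genes it was 0.0122. After rounding to 2 decimals, 18 members were above 0, 22 were below and *Ifit3b* was at 0.00. Leaving out 1 library moved the member median from -0.39 (without WT replicate 1) to 0.38 (without WT replicate 2). It was 0.27 without RepB-/- replicate 1 and -0.33 without RepB-/- replicate 3. Estimates ran from -1.0 (*Mx1*) to 1.42 (*Ifi44*). The liver SE of a member had a median of 0.56 log2 units against 0.23 in MEFs, so intervals were wide, and only 2 of 41 lay wholly within -1 to 1. The intervals of the other 39 members reached past that range, so a 2-fold difference was within what the liver libraries allow. Between the genotypes 1 member did not overlap, *Ifit2*, against 8.05% of genes, at 6.44, 7.55 and 6.30 CPM in RepB-/- and 4.31, 5.04 and 6.06 CPM in WT liver (log2 0.40, 95% interval -0.22 to 1.02).

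In liver the members were low in replicate 1 of both genotypes. Replicate 1 was the lowest RepB-/- library for 35 members and the lowest WT library for 37. For 32 of the 41, both replicate 1 libraries lay below all 4 others, against 21.3% of tested genes, and for 0 members did both lie above, against 23.0% of genes. Summed over members, replicate 1 held 523 CPM in RepB-/- and 631 CPM in WT, and the 4 others held 1140 to 1370 CPM. Summed fetal liver and erythroid markers (10 genes) were 7970 (RepB-/-) and 5220 CPM (WT) in replicate 1. In replicates 2 and 3 they also differed by genotype, at 1820 and 1110 CPM in RepB-/- and 263 and 219 CPM in WT. Of the 9 tested, 9 had an estimate above 0 in RepB-/- against WT (median log2 1.48), and 0 were called, against 0.0373% of genes. Summed dendritic cell markers were 116 and 123 against 195 to 353 CPM, but that list includes the member *Bst2*. For RepB-/- 1 to 3 and then WT 1 to 3, the sums were 116, 353, 197, 123, 195 and 246 CPM. *Bst2* alone was at 83.6, 335, 184, 98.5, 183 and 227 CPM, most of the sum in every library. The sum is therefore not separate from the member levels. What is left of it without *Bst2* was larger in both replicate 1 libraries than in the others, opposite to the members. The part of the fetal liver and erythroid markers in the low member levels, or in the member differences between genotypes, was not tested.

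**Figure D4:**
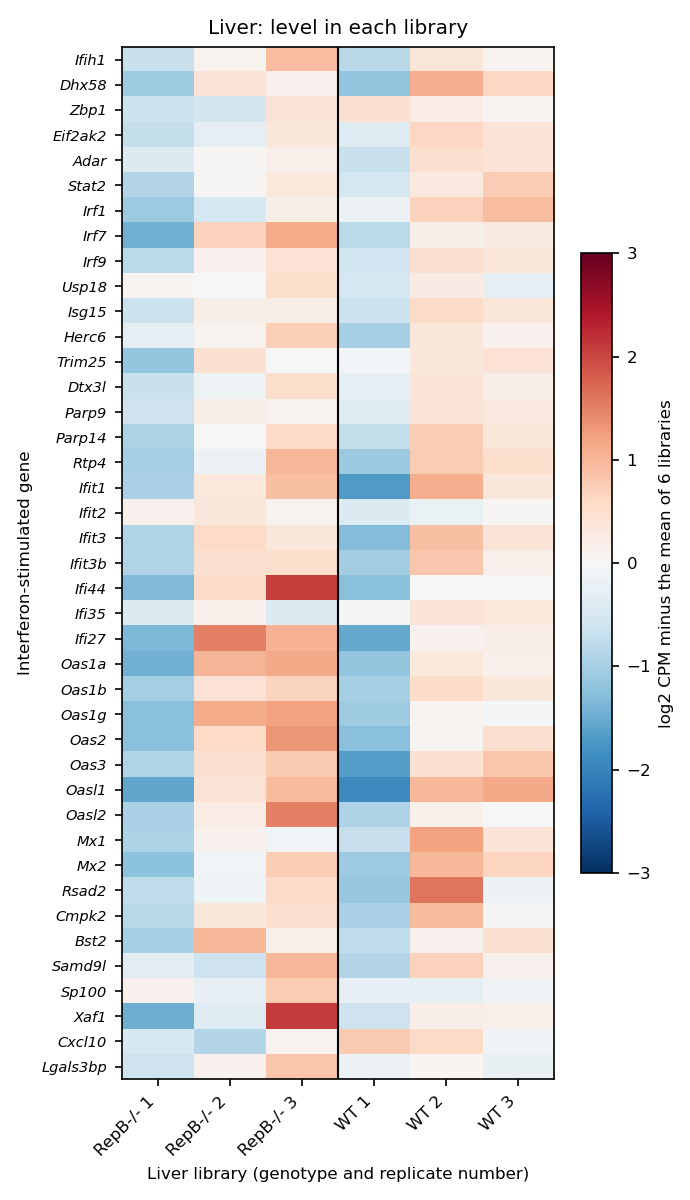
Level of each of the 41 interferon-stimulated genes in each liver library, as log2 CPM minus the mean of the 6 libraries; red is above and blue below that mean, and the vertical line divides genotypes. The replicate 1 column of each genotype is blue for most members, with medians of -0.90 (RepB-/-) and -0.81 (WT).

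*Ifi27* was at 14.7, 109 and 78.7 CPM in RepB-/- and 12.8, 41.8 and 43.9 CPM in WT liver. The replicate 1 libraries were lowest in both genotypes, and outside them RepB-/- was higher (log2 1.04, 95% interval -0.77 to 2.85). *Oas1a* showed the same arrangement, at 1.86, 12.6 and 13.6 against 2.34, 7.49 and 6.63 CPM (log2 0.77, -1.06 to 2.59), as did *Oas1g* at 0.849, 6.45 and 6.94 against 1.05, 2.89 and 2.58 CPM (log2 1.13, -0.77 to 3.02). *Isg15* was at 6.95, 12.7 and 12.6 against 6.96, 16.9 and 14.6 CPM, almost equal in the replicate 1 libraries (log2 -0.26, -1.22 to 0.70).

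*Ifi44* was at 2.39, 9.97 and 29.7 CPM in RepB-/- and 2.50, 6.59 and 6.65 CPM in WT liver, so its largest estimate rested on RepB-/- replicate 3 (log2 1.42, 95% interval -0.64 to 3.47, and 0.25 to 1.92 over the fits that leave out 1 library). *Xaf1* was likewise at 40.1 CPM in that library and at 2.94 to 10.3 CPM in the 5 others. *Mx1*, an antiviral GTPase, was at 0.355, 1.29 and 1.05 against 0.513, 3.25 and 1.65 CPM (log2 -1.0, 95% interval -2.88 to 0.87). *Bst2* was the most abundant member per length in both genotypes, averaging 220 FPKM in RepB-/- and 204 FPKM in WT liver, and ran from 83.6 to 335 CPM with the groups overlapping.

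None of the 10 members called in MEFs was called in liver, and of the 8 higher in MEFs 4 had a liver estimate above 0. *Irf1* was at 10.6, 15.7 and 26.2 CPM in RepB-/- and 20.2, 37.6 and 44.2 CPM in WT liver, lower in RepB-/- at each replicate number with overlapping groups (log2 -0.96, SE 0.42, edgeR adjusted p 1.0, unadjusted 0.058). *Cxcl10* was at 4.76, 3.46 and 7.38 against 12, 10.4 and 6.21 CPM (log2 -0.88, unadjusted edgeR p 0.061). *Eif2ak2* was at 10.7, 14.9 and 23.0 against 13.8, 27.9 and 24.3 CPM (log2 -0.44, 95% interval -1.34 to 0.45). *Samd9l* was at 12.6, 10.1 and 32.0 against 8.37, 25.8 and 17.4 CPM (log2 0.08, -1.26 to 1.42).

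The difference between the genotype effects of the tissues was tested in 1 model over all 12 libraries and 15208 genes, with tables made separately and matched by gene. It was called for 0 of 41 members, against 0.388% of genes. At an unadjusted edgeR p under 0.05 stood *Irf1*, with liver minus MEF of -1.46 (SE 0.48, adjusted p 0.210), and *Eif2ak2*, with -1.09 (SE 0.43, adjusted p 0.279). With the replicate number as a block within tissue, 1 member was called, *Irf1* (-1.49, SE 0.21, edgeR adjusted p 0.0309), against 1.26% of genes. That block assumes a pairing by number that the libraries bear out only for replicate 1 in liver. *Oasl1*, lower in RepB-/- MEFs, was at 1.68, 8.06 and 11.9 against 1.20, 12.5 and 13.6 CPM in liver, and its difference between tissues was 2.97 (SE 1.40, adjusted p 0.360). In liver, interferon ligands summed to at most 0.0669 CPM in any library, and of the pathway lists 1 gene was called, the interferon gamma GTPase *Tgtp1*, at 2.07, 1.73 and 1.90 CPM in RepB-/- and 51.9, 32.3 and 21.3 CPM in WT (log2 -4.21, SE 0.38, edgeR adjusted p 0.0495).

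Among members with a promoter window, the ISRE core was counted beside the MEF calls, without a test of association. It was present in 2 of 7 higher members (*Eif2ak2*, *Oas1a*), in 1 of 2 lower members (*Cxcl10*) and in 8 of 18 tested members that were not called. The higher member *Parp14* had no window, and groups this small cannot show whether the core goes with the calls. *Isg15*, *Ifit1*, *Ifit3* and *Ifit3b*, whose matches are printed above, were among the 8. *Samd9l*, *Xaf1*, *Lgals3bp*, *Irf1* and *Irf9* were higher with no match in their windows, which says only that these letters are not there.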

How the data were processed

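RNA-seq libraries of MEFs and liver were analysed from the authors' deposited gene counts and FPKM. Per the labels, processing tools included Trim Galore 0.4.1, STAR 2.7.0, HTSeq 0.12.4, DESeq2 and deepTools 3.5.0, without stated roles, while the study's methods name Cutadapt, Hisat2 and stranded paired-end mRNA libraries. Gene positions are GRCm39 in the MEF table and GRCm38 in the liver table. The deposited FPKM were used only to compare levels between genes, and 6 TPM columns were not used. Counts were fitted with edgeR 4.0.16 (R 4.3.3; filterByExpr, TMM, quasi-likelihood) within each tissue, on 13306 genes in MEFs and 16080 in liver, and checked on simulated data. Intervals are 95% from the quasi-likelihood fit. DESeq2 1.42.0, other scalings, no filter, a replicate block and leaving out each library were alternatives. In liver, deviations of same-numbered libraries from their genotype means correlated at 0.71, 0.361 and 0.365 across genes. Across numbers, RepB-/- 2 with WT 3 (0.406) and RepB-/- 3 with WT 2 (0.404) correlated as well. The numbers thus set replicate 1 apart but do not pair replicates 2 and 3, and the labels give no reason. The replicate block is therefore only an alternative fit. Members and lists were chosen with earlier results of these data known. Named were the called members and, per role and tissue, the highest CPM and largest change (23 members), and 9 more chosen after their values were seen. Pathway genes named were the 4 of largest change among those called, plus *Ifnb1*. A result on an item withheld for evaluation is not reported here. Amino acid sequences were not used here.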

Additional observations from a re-analysis of the deposited data

How the results depend on the processing

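Of the 10 members called in MEFs, *Samd9l*, *Oasl1*, *Eif2ak2*, *Lgals3bp*, *Xaf1*, *Parp14* and *Irf1* were called in all 12 fits, *Cxcl10* in 10, *Oas1a* in 7 and *Irf9* in 4. TMM over autosomal genes and no filter on low counts changed no call. Leaving out 1 library gave 8 to 10 called members and a median log2 fold change of 0.08 to 0.24. Calls gained were *Rsad2* without RepB-/- replicate 2, *Ifit3* without RepB-/- replicate 3 and *Ifih1* without WT replicate 1. *Rsad2* then had 5 counts in each RepB-/- library left and 15, 11 and 13 in WT. It passed the filter on low counts in that fit only through WT libraries, so its direction there is not independent of the filter. The liver count was 0 in all 14 fits, and leaving out 1 liver library gave medians of -0.39 to 0.38. The cause of these changes was not tested.

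MEF numbers did not pair the libraries (same-number correlations -0.011, -0.0416 and -0.00348), and with the replicate block 9 members were called (37.6% of genes), *Irf9* being lost (edgeR adjusted p 0.0741). The block changed no liver call and gave a liver median of 0.02. With it, the tissue difference was called for 1 member.

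Of the uncalled members given their own values here, 7 in MEFs and 15 in liver changed sign when 1 library was left out. Over all members, the leave-out range spanned 0 for 9 in MEFs and 19 in liver. In MEFs their log2 ranges were -0.27 to 0.35 (*Oasl2*), -0.29 to 0.26 (*Dhx58*), -0.08 to 0.20 (*Stat2*), -0.28 to 0.02 (*Ifi44*), -0.50 to 0.10 (*Isg15*), -0.15 to 0.23 (*Ifit1*) and -0.06 to 0.08 (*Ifit2*, at -0.00 with DESeq2 size factors). In liver they were -0.89 to 0.13 (*Oasl1*), -0.59 to 0.50 (*Samd9l*), -0.82 to 1.43 (*Xaf1*), -0.64 to 0.09 (*Parp14*), -0.09 to 0.62 (*Lgals3bp*), -0.42 to 0.13 (*Irf9*), -0.54 to 0.38 (*Ifit3*), -0.06 to 1.24 (*Oasl2*), -0.17 to 0.63 (*Ifih1*), -0.35 to 0.62 (*Bst2*), -0.50 to 0.66 (*Ifit1*), -1.03 to 0.62 (*Rsad2*), -1.03 to 0.00 (*Mx2*), -0.39 to 0.02 (*Parp9*) and -0.52 to 0.10 (*Dtx3l*). The liver block turned *Ifit3* (0.02) and *Ifit1* (0.20), a replicate 1 term gave 0.01 and 0.18, and that term without the Y-linked library turned *Oasl1* (0.11), *Bst2* (-0.19) and *Ifit1* (0.43). In MEFs, 17 of the 36 tested members were under 5 CPM, *Oas1a*, *Oasl1* and *Cxcl10* among them, and how depth bears on their calls was not tested.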
